A study of Homo sapiens with 8 samples.

Results

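High-ranked TEAD4 binding regions that had no counterpart after inhibition of activin, Nodal and TGF-β signalling were described in WA09 cells, a line derived from a human embryo and established as pluripotent stem cells. The members were selected on row order and on absence from a second list: they were the regions among the first 5000 rows of the TEAD4 list of DMSO-treated cells, on chromosomes 1 to 22, that shared 0 bp with any TEAD4 region of SB431542-treated cells. There were 3321 such regions, or 70.2% (95% Wilson interval 68.8 to 71.4%) of the 4734 rows on those chromosomes and 1.21% of all 273415 TEAD4 regions called there in DMSO cells. The other 266 of the first 5000 rows lay outside chromosomes 1 to 22 and were left out by definition, and 198 of them also lacked a partner.

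WA09 cells were grown on Matrigel in medium conditioned by mouse embryonic fibroblasts and received DMSO, the solvent, or 10 µM SB431542 for 4 h, and the DNA bound to each protein was recovered with an antibody and sequenced (ChIP-seq). Called regions were used for TEAD4 in DMSO (289380 regions), TEAD4 in SB431542 (262109 regions) and SMAD2 in DMSO (420548 regions), with 1 library in each group. The other 5 of the 8 groups, input DNA and rabbit IgG from both treatments and SMAD2 under SB431542, were not analysed here. No expression was measured, so the identity of the cells could not be checked against marker genes.

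TEAD4 is a transcription factor that binds DNA through its TEA domain and activates genes mainly when it is joined by YAP or TAZ, the coactivators that the Hippo pathway holds out of the nucleus. SMAD2 is a target of the activin, Nodal and TGF-β receptor kinases that SB431542 blocks, and once phosphorylated it enters the nucleus with SMAD4. Human embryonic stem cells depend on activin or Nodal signalling to remain pluripotent, and YAP, TAZ and TEAD factors are among the proteins reported to meet SMAD complexes on DNA in these cells.

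Absence from the SB431542 list is not a measured loss of TEAD4. The lists give a chromosome, a start and an end for each region and no score, height or count, so the occupancy of a region and the depth behind it are unknown. No header states what the row order means, so that high-ranked here stands only for an early row. The lists also differed in form: 100% of the DMSO starts lay on multiples of 50 bp, against 1.97% of the SB431542 starts. Treatment and the way of making the list therefore cannot be told apart. Over the whole DMSO list on chromosomes 1 to 22, 94.3% of TEAD4 regions had no SB431542 partner, so that the 70.2% among the first 5000 rows, which chose the members, lay below the share for the list as a whole.

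The members were unevenly spread over the first 5000 rows. Among the first 100 rows there were 0 members of 95 regions. Past row 100 and up to row 500, members made up 52 of 382 regions (13.6%), and they made up 245 of 476 (51.5%) in the rows up to 1000. In the next steps, up to rows 2000 and 3000, they were 651 of 946 (68.8%) and 775 of 951 (81.5%). The share then stayed close to that level, with 818 of 953 (85.8%, 83.5 to 87.9%) up to row 4000 and 780 of 931 (83.8%, 81.3 to 86.0%) up to row 5000, with overlapping intervals. Most members thus came from the lower part of the selected rows.

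**Figure D1:**
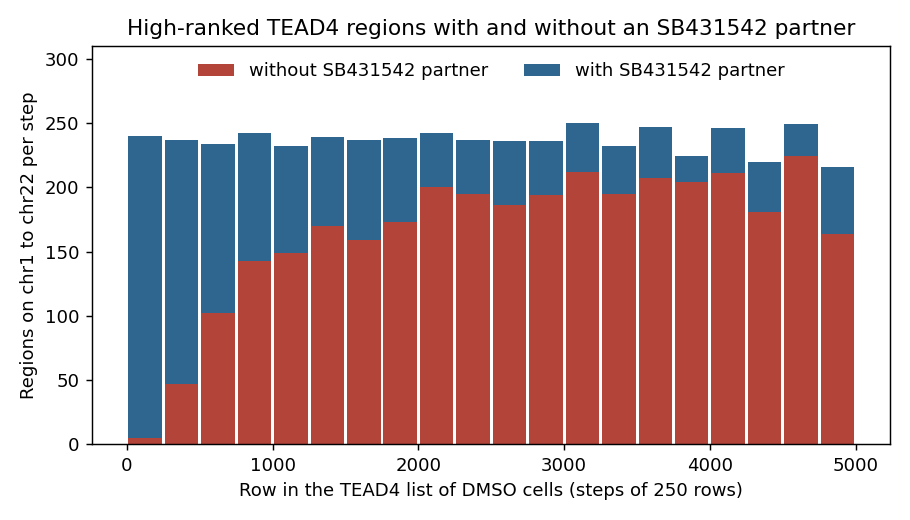
Number of TEAD4 regions of DMSO cells on chr1 to chr22 in each step of 250 rows (horizontal axis, row in the list), split into regions without (red) and with (blue) an overlapping TEAD4 region of SB431542 cells. The red part is nearly absent in the first step and is the larger part of each step past row 1000, the smallest of them with 149 members and 83 partnered regions.

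The row order held runs sorted by genome position, which bears on the edge of the set. The TEAD4 rows of DMSO cells fell into 3462 runs within which regions followed each other in descending genome order, up to 11104 rows long. Such an order can arise when rows of equal value are sorted by position. The list holds no values and no header states it, so this was not tested. Row 5000 lay inside a run of 508 rows, from row 4912 to row 5419. The part of that run above the limit gave 54 members, on chromosomes 9 (12), 8 (20) and 7 (22), and the part below it held a further 367 unpartnered regions of 419. The last member inside the limit was row 4999, at chr7:48820801-48820999 (199 bp), and the first unpartnered row outside it was row 5002, at chr7:28916851-28917099 (249 bp). In this run 83.1% of the regions before the limit and 87.6% of those after it had no partner.

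Regions in long runs lacked a partner more often than regions between them in the same steps of rows. Past row 1000 and up to row 5000, 2503 of 3005 regions in runs of at least 20 rows had no SB431542 partner (83.3%, 81.9 to 84.6%), against 521 of 776 regions in shorter runs (67.1%, 63.8 to 70.4%). Both kinds had a median width of 299 bp in these rows. A mean of 10.6 SB431542 regions, partners included, lay within 50 kb of those in long runs and 12.8 of the others. The same order held in each step of 1000 rows, including the first, where 59.2% of 309 and 17.7% of 644 regions had none. In that first step the median widths differed, at 349 and 399 bp, and the share of members rose steeply within it. The limit of 20 rows was set after the values were seen, and these shares are a description, since presence in the SB431542 list chose the members.

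The members were narrower than the high-ranked regions that were called again. Their median width was 299 bp (interquartile range 249 to 349 bp), compared with 349 bp (299 to 449 bp) for the 1413 high-ranked regions with a partner and 199 bp (149 to 249 bp) for all TEAD4 regions of DMSO cells. Widths of 249 to 349 bp took 77.1% of the members and 48.3% of the partnered regions, and 18.3% of members against 49.3% of partnered regions were 399 bp or wider. Past row 3000, both groups had a median of 299 bp. A wide region has more room to meet another one by position alone, so that width is tied to the rule. The widest member, chosen after the values were seen, spanned 1299 bp at chr16:51670501-51671799 (row 1486) and still had no SB431542 region within 6219 bp.

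**Figure D2:**
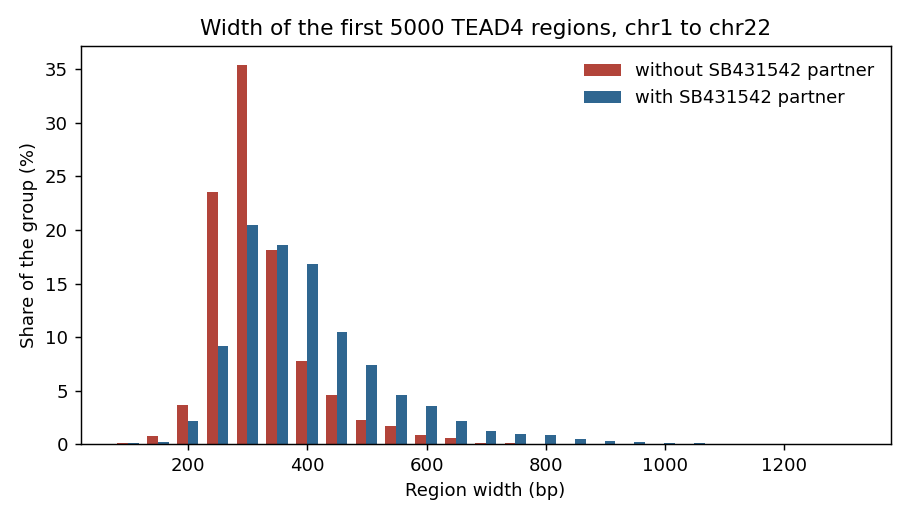
Share of regions (vertical axis, percent of the group) at each width in bp for the 3321 high-ranked TEAD4 regions without (red) and the 1413 with (blue) an SB431542 partner. The red bars concentrate at 249 to 349 bp, which hold 77.1% of that group, whereas the blue bars extend further to the right.

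The first 10 members by row stood in rows 112 to 280 of the TEAD4 list of DMSO cells. The first, row 112 at chr7:33756151-33756599 (449 bp), lay 10845 bp from the nearest SB431542 region. That neighbour, at chr7:33745057-33745305, was itself in row 1829 of the SB431542 list and was the only nearest neighbour of the 10 within its first 5000 rows. Row 115, at chr12:18536051-18536449, had its nearest SB431542 region at 8547 bp. Rows 236 (chr1:42065601-42065949), 239 (chr4:101907801-101908149) and 240 (chr4:79174051-79174349) had theirs at 3981, 2161 and 2926 bp. Row 272, at chr21:17613951-17614349, had the closest of the 10, at 783 bp.

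Of these 10 regions, 2 overlapped a SMAD2 region, both on chromosome 6. Row 274, at chr6:2866051-2866599, was the widest of the 10 (549 bp) and held the whole of a SMAD2 region at chr6:2866051-2866249 (row 57004 of the SMAD2 list). Row 280, at chr6:88972351-88972699, held a SMAD2 region of row 271746. Rows 276 (chr3:183991601-183991949) and 277 (chr3:100971701-100972099) had no SMAD2 overlap, and their nearest SB431542 regions lay at 10693 and 4414 bp. Over the 10 the gap to an SB431542 region ran from 783 to 10845 bp with a median of 4198 bp, close to the median of 3318 bp over all members.

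Some members had an SB431542 region close by. Beside 684 of the 3321 members (20.6%) an SB431542 region lay within 1000 bp, against 18.1% of all TEAD4 regions of DMSO cells with such a neighbour that did not overlap them. Within 500 bp there were 383 (11.5%), within 100 bp 96 (2.89%) and within 10 bp 12. Of the lower-ranked unpartnered regions, 9.61% had one within 500 bp and 2.10% within 100 bp. For the next region beside the partner of partnered regions these shares were 14.7% and 3.61%, so that members lay between both groups. At 2 members the regions touched with a gap of 0 bp. The first 3 such members by row within 100 bp were row 412 at chr6:26556851-26557149 (gap 5 bp), row 461 at chr21:11151451-11151899 (36 bp) and row 542 at chr16:58972801-58973299 (57 bp). On the other side of the rule, 9 of the partnered regions shared 10 bp or less with their partner, and 2 shared 1 bp, at chr2:70368201-70368599 (row 2301) and chr12:15177451-15177799 (row 4116). The median overlap of partnered regions was 198 bp.

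The SB431542 regions nearest to members stood near the middle of that list, at a median row of 130127 of 262109. The overlapping partners of the 1413 partnered regions, which the rule picked out, had a median row of 12650. In 11 members (0.331%) the nearest SB431542 region lay within 500 bp and came from the first 5000 SB431542 rows. An example, chosen after the values were seen, is row 625 at chr5:64437851-64438199, 42 bp from the SB431542 region at chr5:64438242-64438468 (row 1275). Only 1 of these 11 members lay beside one of the first 1000 SB431542 rows. That member, also chosen after the values were seen, was row 4842 at chr7:51395101-51395399 (SB431542 row 546, 389 bp away). For 15 partnered regions (1.06%) the nearest non-overlapping SB431542 region lay within 500 bp and came from the first 5000 SB431542 rows. The same share over all TEAD4 regions of DMSO cells was not computed, so whether either count is unusual was not tested. Row numbers of the SB431542 list carry limited information. Past row 5000 of that list, 99.9% of neighbouring rows showed no increase in width. Over its last 88436 rows width never increased, and ran from 198 to 99 bp. That stretch made up 33.7% of the SB431542 list and held the nearest SB431542 region of 1084 members (32.6%), close to its share of the list, and the partner of 125 partnered regions (8.85%).

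At the other extreme, 2157 members (64.95%) had no SB431542 region within 2000 bp, 443 (13.3%) had none within 10000 bp and 2 had none within 50000 bp. Of the lower-ranked unpartnered regions 68.3% had none within 2000 bp and 17.1% none within 10000 bp. For the next region beside the partner of partnered regions these shares were 58.4% and 10.4%, so that members lay between both groups. The most distant, chosen after the values were seen, was row 3127 at chr19:1160651-1160999, with 56948 bp to the nearest SB431542 region and 17 SMAD2 regions within 50 kb. The median gap was 3318 bp for members and 3745 bp for unpartnered regions past row 5000. For partnered regions, the next SB431542 region beside the partner lay at a median of 2665 bp.

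**Figure D3:**
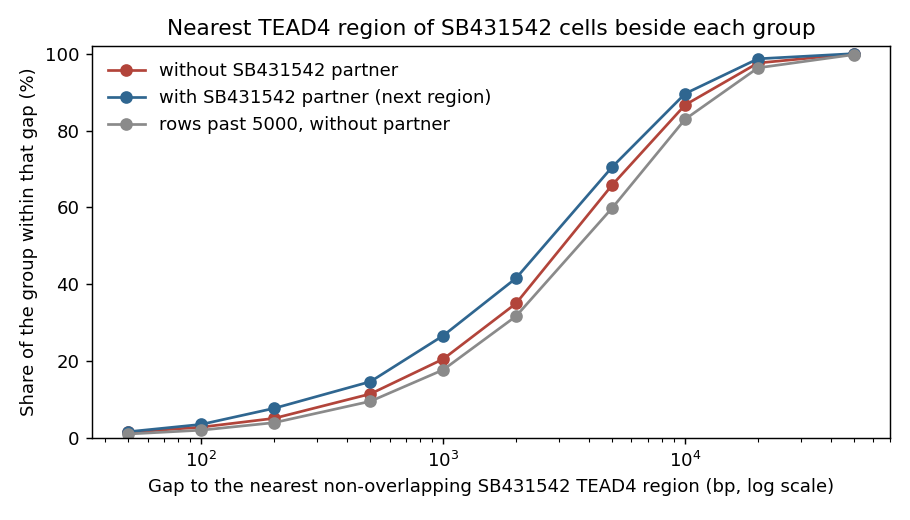
Cumulative share of regions (vertical axis, percent) whose nearest non-overlapping TEAD4 region of SB431542 cells lies within the gap on the horizontal axis (bp, log scale), for high-ranked regions without a partner (red), high-ranked regions with one (blue, next region beside the partner) and unpartnered regions past row 5000 (grey). The red curve runs between the others: at 1000 bp it stands at 20.6%, the blue at 26.7% and the grey at 17.8%.

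The DMSO lists were about as dense around members as around the partnered regions. Within 50 kb of a member lay a median of 10 further TEAD4 regions of DMSO cells and 15 SMAD2 regions, and the medians around partnered regions were the same. For SB431542 regions the medians were 10 around members, 12 around partnered regions, the partner included, and 9 over all TEAD4 regions of DMSO cells. A few members stood in crowded stretches of the SB431542 list. Around 16 members (0.482%) and 30 partnered regions (2.12%) there were at least 40 SB431542 regions within 50 kb, compared with 0.142% of all TEAD4 regions. The highest member count was 111, around row 433 at chr21:11134001-11134549, where 13 further TEAD4 and 13 SMAD2 regions of DMSO cells were called.

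Most members had no other member within 50 kb. Another TEAD4 region of DMSO cells, of any rank, lay within 1000 bp of 19.6% of members, beside 24.0% of all TEAD4 regions. Another member lay within 50 kb of 462 members (13.9%, 12.8 to 15.1%) and within 10 kb of 107 (3.22%), and a partnered high-ranked region lay within 50 kb of 234 (7.05%). Of the 1413 partnered regions, 11.5% (9.91 to 13.2%) had another partnered region within 50 kb and 4.18% had one within 10 kb. The groups differ in size, which bears on such shares. Joining neighbours up to 50 kb apart left 2859 members alone and gave 214 pairs, 10 groups of 3 and 1 group of 4. The group of 4 spanned 76.5 kb at chr19:58397551-58474049, with rows 2302 to 2719, no SMAD2 overlap and no partnered region between its members. Its best-ranked member, row 2302 at chr19:58439751-58440049, lay 588 bp from an SB431542 region. Of the 10 groups of 3, the one with the best-ranked member, at chr8:68786751-68799299 covered 12.55 kb, with rows 655, 1908 and 4963. Its last-ranked member shared 49 bp with SMAD2. The next by that rank, at chr4:190507701-190559649 (rows 699, 1113 and 1677), included 1 partnered region and was among the crowded stretches, with 86 SB431542 regions within 50 kb of its best-ranked member.

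By chromosome, the share of high-ranked rows that were members ran from 60.95% on chromosome 19 (64 members and 41 partnered regions, 51.4 to 69.7%) and 61.7% on chromosome 22 to 78.0% on chromosome 14 (110 members and 31 partnered regions, 70.5 to 84.1%). Chromosomes 1 (292 members), 2 (288) and 6 (247) held the most members. Chromosome 6 held 7.44% of members and 6.50% of all TEAD4 regions, and chromosome 17 held 3.40% and 2.58%. Of the partnered high-ranked regions 6.30% lay on chromosome 6 and 3.47% on chromosome 17, so that the higher share on chromosome 17 was common to both high-ranked groups. Since the limit at row 5000 fell inside a run sorted by position, members of that run came from chromosomes 7, 8 and 9 alone, where they make up 22, 20 and 12 of the members counted.

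SMAD2 calls did not take part in the choice of members. SMAD2 regions of DMSO cells overlapped 376 members (11.3%, 10.3 to 12.4%), beside 7.78% of all TEAD4 regions of DMSO cells. Among partnered high-ranked regions 186 did (13.2%, 11.5 to 15.0%), a difference for members of -1.84 percentage points with a 95% Newcombe interval of -3.97 to 0.165, which includes 0. When regions were compared within steps of the row order the difference was -2.47 points (-4.82 to -0.120), and at equal width it was 0.382 points (-1.83 to 2.59). With both weightings together, added after the data were seen, it was -1.18 points (-3.56 to 1.20). The sign thus depended on the weighting. Of the 3 row steps compared, the interval excluded 0 in the last, past row 2500 (11.6% against 16.1%, -4.51 points, -8.77 to -0.831). Past row 100 and up to row 1000 the difference was -1.39 points (-5.74 to 3.44), and from there to row 2500 it was -0.902 points (-4.91 to 2.59).

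**Figure D4:**
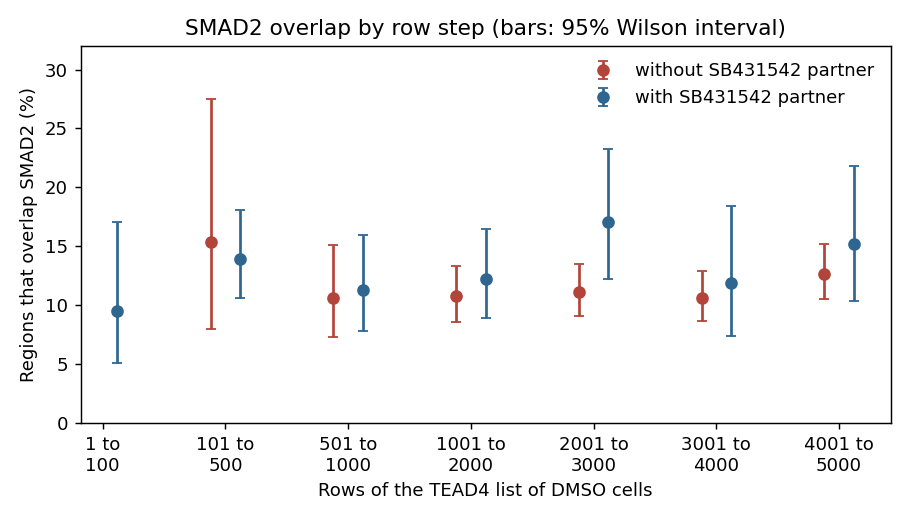
Share of regions that overlap a SMAD2 region of DMSO cells (vertical axis, percent) in steps of the TEAD4 row order, for high-ranked regions without (red) and with (blue) an SB431542 partner. Points are shares and bars 95% Wilson intervals, and the intervals of the pair overlap in every step that holds both groups.

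Against lower-ranked unpartnered regions, members overlapped SMAD2 more often, and the difference went with width. Past row 5000, 7.64% of 254463 unpartnered regions overlapped SMAD2, 3.68 points less than members (2.64 to 4.81). At equal width the difference was 0.240 points (-0.854 to 1.33). Among members the overlap was 9.22% at 249 bp, 9.01% at 299 bp, 14.8% at 349 bp, 15.6% at 399 bp and 13.6% at 449 bp, with overlapping intervals at the last 3 widths. Partnered regions stood at 9.23, 11.8, 12.2, 9.24 and 17.6% at the same widths, with no steady rise. By a measure that does not count the region's edges, midpoints within 100 bp of each other, 6.44% of members, 7.43% of partnered regions and 5.68% of lower-ranked unpartnered regions had a SMAD2 partner, and the members' differences from both (-0.987 points, -2.67 to 0.549, and 0.761 points, -0.0301 to 1.65) had intervals that include 0. At equal width the latter was 0.179 points (-0.676 to 1.03).

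SMAD2 regions gathered at the centre of members. In the central 125 bp there were 131 SMAD2 midpoints for 3321 members, or 3.94 per 100 regions (exact Poisson interval 3.30 to 4.68), which was 2.04 times the mean of 1.93 per 100 in steps more than 1000 bp away. Partnered regions had 4.53 per 100 (3.49 to 5.78) at the centre, 2.14 times their flanks, and the intervals overlap. Unpartnered regions past row 5000 had 3.40 per 100 (3.33 to 3.47), 1.65 times their flanks. Within 1000 bp of the region, overlaps included, 35.6% of members had a SMAD2 region, beside 34.7% of all TEAD4 regions of DMSO cells.

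**Figure D5:**
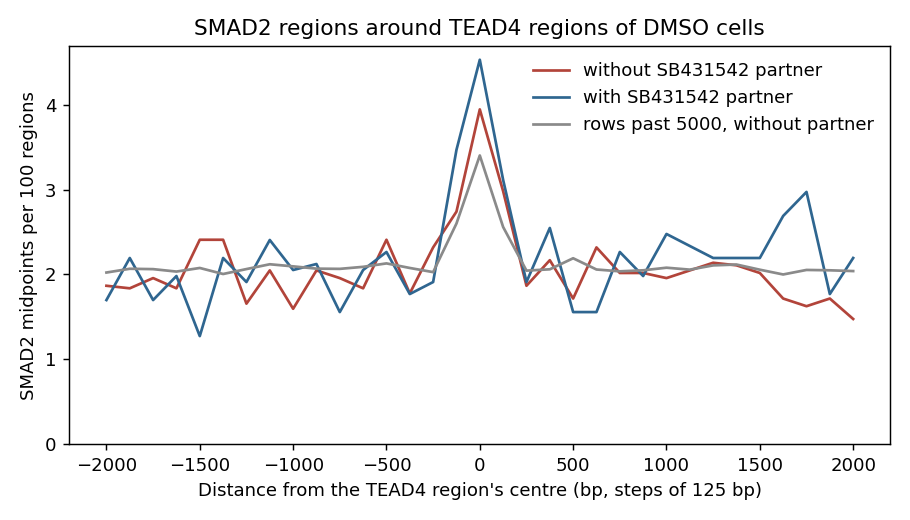
SMAD2 midpoints per 100 TEAD4 regions (vertical axis) in steps of 125 bp around the region's centre (horizontal axis, bp), for high-ranked regions without (red) and with (blue) an SB431542 partner and for unpartnered regions past row 5000 (grey). All lines peak at the centre, at 3.94, 4.53 and 3.40 per 100, above flanks of about 1.93, 2.12 and 2.06.

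The SMAD2 partners of members were spread over the whole SMAD2 list, as were those of all TEAD4 regions. Of the 376 members with SMAD2, 4 (1.06%) met one of the first 5000 SMAD2 rows and 13.8% one of its first 10% of rows, beside 1.78% and 13.04% of all TEAD4 regions that overlapped SMAD2. The first 50% of the SMAD2 rows held 59.3% of the members' partners and 55.0% of those of all TEAD4 regions, with median rows of 174830 and 186687 of 420548. The SMAD2 region lay wholly inside the member in 209 cases (55.6%), between the 69.4% of partnered regions, which were wider, and the 38.6% of all TEAD4 regions, which were narrower. Members with and without SMAD2 were also compared for nearness to SB431542 calls, and 20.2% and 20.6% of them had an SB431542 region within 1000 bp, a difference of -0.432 points (-4.47 to 4.15) whose interval holds 0.

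The 5 members with the smallest sum of TEAD4 and SMAD2 rows stood, by that choice, in early rows of both DMSO lists. Like all members, they overlapped no TEAD4 region of SB431542 cells. The first, at chr8:42704501-42704899 (row 1743), held a SMAD2 region of row 282 and had its nearest SB431542 region at 4253 bp. It was followed by chr6:149132151-149132499 (row 2933), which shared 99 bp with a wider SMAD2 region at chr6:149132401-149132799 (row 1864), and by chr11:65053101-65053449 (row 3615), which shared 49 bp with SMAD2 row 2024. The others were chr6:55459001-55459299 (row 1751, SMAD2 row 5350) and chr6:79311551-79312099 (row 3024), which held the whole of a SMAD2 region of row 4248 and was 12929 bp from an SB431542 region. Of these 5, 3 lay on chromosome 6, where 40 of 247 members (16.2%) overlapped SMAD2. That was the highest share of the 22 chromosomes, with 15.6% on chromosome 16 (15 of 96 members) close to it. The lowest was 4.88% on chromosome 21, from 2 of 41 members. SMAD2 shares by chromosome were not computed for partnered regions, so whether these values are particular to members was not tested.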

How the data were processed

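ChIP-seq regions of WA09 cells were analysed. The deposited lists hold 3 columns without a header: chromosome, start and end in bp of called regions, with no other measured value. Per the submitters' processing notes the build is hg19. For the aligner, caller, threshold, control and depth, the tool or value is not given in the sources used here. Lists were tied to samples by target and treatment. Printed starts are raised by 1 bp; widths are end minus start. Overlap meant at least 1 shared bp. Shares carry 95% Wilson intervals, differences Newcombe intervals, and differences weighted over rows or widths normal intervals; all cover counting error only and treat regions as independent. Since each group has 1 library, no difference could be set against replicates and p-values were not computed. Empty stretches were at least 1 Mb without a region of any list, with a margin of 500 kb. Beside them lay 12 members and 23 partnered high-ranked regions, and leaving these out gave 3309 members. Overlap counting was tested on simulated data. Members and comparisons were chosen with earlier results of these data known. Named regions were the first 10 members by row, the first 5 with SMAD2 by sum of rows and 3 groups by size and then best row. The edges of the row limit and the first 3 members within 100 bp of an SB431542 region were also named. Other regions were named outside these rules, as extremes or examples, and were not planned. The gene and sequence tables at hand are on another build, so the planned gene lists, promoters, motifs and sequences were not analysed here. Python 3.11.15, NumPy 2.4.6, SciPy 1.17.1, pandas 2.3.3 and matplotlib 3.10.9 were used.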

Additional observations from a re-analysis of the deposited data

How the results depend on the processing

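The number of members was between 2637 and 3980 in 10 of 12 alternatives, and by construction 1343 with the first 2500 rows and 7478 with the first 10000. Reading ends as inclusive gave 3319, and ending the rows before or after the run that holds row 5000, an alternative chosen after seeing the data, gave 3267 and 3688. The difference in SMAD2 overlap from partnered regions kept its sign and an interval that includes 0 in 14 of 21 alternatives. Its interval excluded 0 with weights over row steps (-2.47 points), within the rows past 2500 (-4.51) and, chosen after seeing the data, with the first 10000 rows (-2.52) or all of the run at row 5000 (-2.36). The sign was reversed at equal widths (0.382), with 50% of both regions shared with SMAD2 (0.587) and, chosen after seeing the data, with 50% of both shared with SB431542 (0.869). The cause was not tested. By construction, the share of members with SMAD2 was 2.71% with 50% of both regions, 6.44% with midpoints within 100 bp and 6.81% with the first 50% of SMAD2 rows, and that with another member nearby 3.22% at 10 kb and 25.5% at 100 kb. No paired analysis was possible because there is a single library for each group, so none could be left out. Alternatives that needed genes or sequence were not run.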
